A study of Mus musculus with 2 samples.

Results

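The genes described here are the 10 core genes of the G1 phase machinery in embryonic mouse midbrain: the D cyclins Ccnd1, Ccnd2 and Ccnd3, their kinases Cdk4 and Cdk6, the Cip/Kip inhibitors Cdkn1a and Cdkn1b, the INK4 inhibitors Cdkn2c and Cdkn2d, and the pocket protein gene Rb1. They were chosen by name from the 55536 genes of the GENCODE M21 annotation, and each symbol matched 1 gene. No measured value was a criterion of the choice, though earlier results of these data were known when it was made. The study profiled polyadenylated RNA of whole midbrain from B6NCrl mice at 12.5 days of gestation, with males and females pooled. It has a single group of 2 libraries, replicate 1 from 120 embryos and replicate 2 from 88, so there was no treated, mutant or other contrasting condition. The results are therefore levels within the tissue, differences between the 2 pools, and differences between the 2 annotations (GENCODE M21 and M4) against which the same reads were quantified.

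D cyclins accumulate in response to growth signals during G1, bind Cdk4 or Cdk6, and the active complexes phosphorylate Rb1, which releases E2F factors that switch on genes of S phase. INK4 inhibitors bind the kinases and keep D cyclins from them, while Cip/Kip inhibitors bind assembled cyclin-kinase complexes, chiefly those of Cdk2. In the embryonic neural tube this balance helps decide whether a progenitor divides again or leaves the cycle. Cdkn1b and Cdkn2d are known for holding newborn mouse neurons out of the cycle.

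Total expected counts (estimated reads per gene, which need not be whole) were 30274342 in replicate 1 and 38421860 in replicate 2. Levels are in TPM, an abundance divided by transcript length and set to a common total per library, so that genes can be compared, and a gene counted as detected at 1 TPM or more in both libraries. Genes of the marker lists for dividing progenitors (6 of 6), mitosis (5 of 5), neurons (7 of 7) and midbrain (4 of 4) were all detected, and Otx2 led the midbrain list with 145 and 141 TPM. None of the 4 Hox genes of the hindbrain and spinal cord list was detected, while the 4 telencephalon genes all were, with summed levels of 29.5 TPM in replicate 1 and 21.5 TPM in replicate 2, led by Emx2. Genes of other cell types were present too: the summed TPM of the 8 erythroid genes was 13275 in replicate 1 and 15631 in replicate 2, and that of the 6 mesenchymal genes 981 and 1392. In whole tissue, fewer cells of a type and less RNA per cell cannot be told apart.

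Promoter windows are shown for 4 of the genes, Ccnd3, Cdkn1a and Cdkn2c because RefSeq lists 2 starts for each and the libraries divided their counts between them unequally, and Cdk4 because it had the highest level of the 10. Each window runs from 250 bases before a RefSeq start to 50 bases after it on build GRCm38.p6, 5′ to 3′ on the strand of the gene. Capitals mark CCAAT in Ccnd3, a part of the p53 response element (GAACATGTC or its reverse complement) in Cdkn1a, an E2F core (TTTCGCG or TTTGGCG) in Cdkn2c, and the E-box CACGTG, a site of basic helix-loop-helix factors, in Cdk4; other motifs are left in lower case. All motifs were searched on both strands, did not overlap each other where marked, and were chosen with the windows in view.
Ccnd3 upstream start, chr17:47504801-47505100, plus strand: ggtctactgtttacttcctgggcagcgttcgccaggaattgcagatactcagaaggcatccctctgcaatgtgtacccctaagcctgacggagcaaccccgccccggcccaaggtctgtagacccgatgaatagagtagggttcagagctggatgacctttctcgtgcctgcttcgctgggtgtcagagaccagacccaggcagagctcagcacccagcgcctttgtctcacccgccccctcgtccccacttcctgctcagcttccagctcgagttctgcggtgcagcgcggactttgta
Ccnd3 downstream start, chr17:47593217-47593516, plus strand: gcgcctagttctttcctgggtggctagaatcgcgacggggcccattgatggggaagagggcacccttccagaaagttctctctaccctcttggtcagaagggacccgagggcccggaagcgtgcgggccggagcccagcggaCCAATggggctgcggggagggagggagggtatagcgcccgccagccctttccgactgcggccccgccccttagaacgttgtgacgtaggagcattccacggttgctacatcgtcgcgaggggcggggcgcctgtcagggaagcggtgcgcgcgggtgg
Cdkn1a upstream start, chr17:29090729-29091028, plus strand: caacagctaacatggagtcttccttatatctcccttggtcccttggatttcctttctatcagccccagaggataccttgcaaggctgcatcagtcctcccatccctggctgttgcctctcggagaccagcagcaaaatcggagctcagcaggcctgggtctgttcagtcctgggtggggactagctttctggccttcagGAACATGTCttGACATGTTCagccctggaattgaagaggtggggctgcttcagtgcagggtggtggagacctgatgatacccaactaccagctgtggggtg
Cdkn1a downstream start, chr17:29093519-29093818, plus strand: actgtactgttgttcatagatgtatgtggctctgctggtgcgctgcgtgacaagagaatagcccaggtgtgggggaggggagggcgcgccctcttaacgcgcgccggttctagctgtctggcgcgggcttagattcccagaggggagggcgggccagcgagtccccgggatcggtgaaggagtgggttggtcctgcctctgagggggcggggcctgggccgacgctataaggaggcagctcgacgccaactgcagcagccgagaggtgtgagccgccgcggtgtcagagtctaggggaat
Cdkn2c upstream start, chr4:109666707-109667006, minus strand: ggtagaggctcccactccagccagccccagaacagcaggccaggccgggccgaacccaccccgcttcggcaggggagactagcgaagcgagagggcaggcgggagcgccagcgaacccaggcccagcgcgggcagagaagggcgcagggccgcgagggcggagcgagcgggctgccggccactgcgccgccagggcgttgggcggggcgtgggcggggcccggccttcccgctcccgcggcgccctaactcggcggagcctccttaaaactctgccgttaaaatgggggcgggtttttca
Cdkn2c downstream start, chr4:109665323-109665622, minus strand: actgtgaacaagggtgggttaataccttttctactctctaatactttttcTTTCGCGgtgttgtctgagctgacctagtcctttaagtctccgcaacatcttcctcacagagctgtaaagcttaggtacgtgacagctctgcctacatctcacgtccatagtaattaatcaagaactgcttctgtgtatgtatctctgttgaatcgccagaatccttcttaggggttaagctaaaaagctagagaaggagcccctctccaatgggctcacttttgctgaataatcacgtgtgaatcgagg
Cdk4 start, chr10:127063285-127063584, plus strand: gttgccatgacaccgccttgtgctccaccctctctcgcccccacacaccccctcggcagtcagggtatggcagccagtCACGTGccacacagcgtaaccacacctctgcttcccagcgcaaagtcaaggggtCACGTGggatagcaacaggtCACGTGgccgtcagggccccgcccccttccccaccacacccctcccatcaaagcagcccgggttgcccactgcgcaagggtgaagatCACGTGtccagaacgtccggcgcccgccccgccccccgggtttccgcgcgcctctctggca

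Of 32851 windows of this length in the RefSeq table, 37.4% held a CCAAT, 7.15% the E-box, 2.37% an E2F core and 0.152% the p53 motif. The upstream window of Cdkn1a held the p53 motif at 2 places, beginning at positions -51 and -40 from the RefSeq start, and was the only 1 of all windows to do so. The Cdk4 window held 4 E-boxes, at positions -172, -118, -98 and -11, and 8 windows in all, or 0.0244%, held 4 or more. Of the Ccnd3 windows, the downstream one held CCAAT and the upstream one did not, and of the Cdkn2c windows, the downstream one held the E2F core and the upstream one did not. The windows also differed in base composition. The upstream window of Cdkn1a had 2 CpG dinucleotides and the downstream one 23, while in Cdkn2c the upstream window had 33 and the downstream one 8, against a median of 7 over all windows. These matches describe letters and not binding, which was not measured.

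All 10 genes were detected, against 59.4% of 22028 protein-coding genes, and their mean levels ran from 9.42 TPM for Cdkn2c to 1613 TPM for Cdk4. The order of mean TPM was Cdk4, Ccnd2, Ccnd1, Ccnd3, Cdkn2d, Rb1, Cdkn1b, Cdkn1a, Cdk6 and Cdkn2c. For each of the 9 pairs of neighbours in that order, the values of the 2 libraries did not overlap. The bounds that the authors deposited with each TPM are wider, and by them 2 pairs overlapped in at least 1 library, Rb1 with Cdkn1b and Cdk6 with Cdkn1a. Rb1, for example, had bounds of 22.3 to 32.6 TPM in replicate 1, and Cdkn1b 20.8 to 23.5 TPM.

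**Figure D1:**
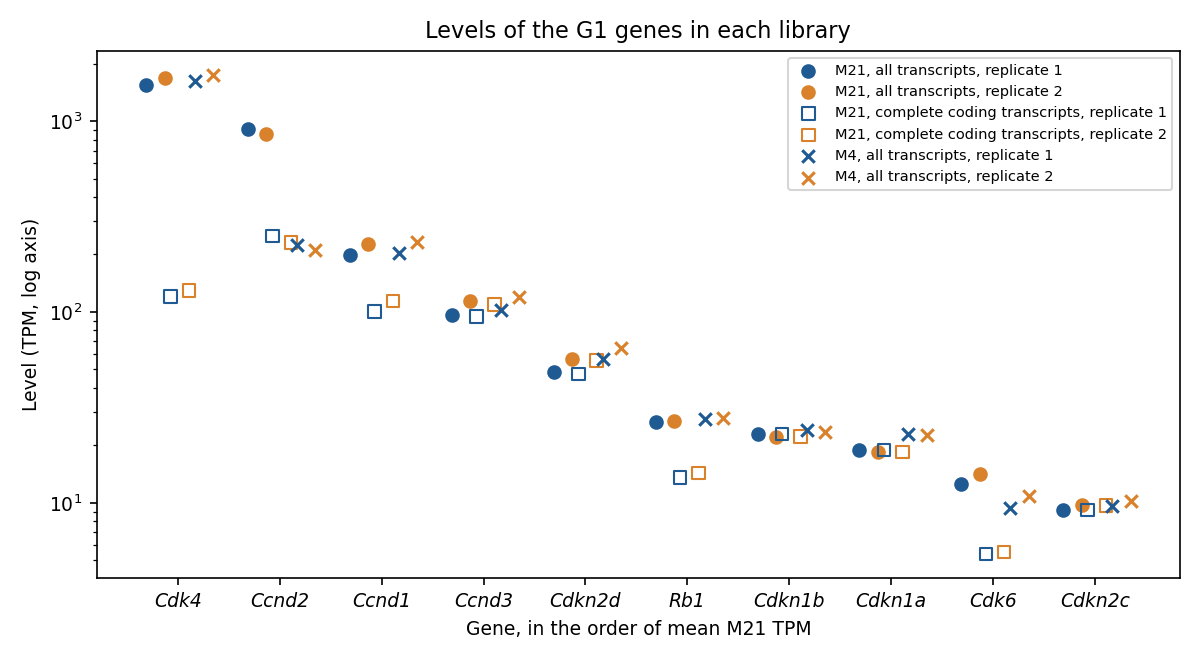
TPM (log axis) of the 10 genes in replicate 1 and replicate 2, from the M21 tables over all transcripts (filled circles), from M21 complete coding transcripts alone (open squares) and from the M4 tables (crosses). Cdk4 and Ccnd2 lead with 1613 and 878 TPM over all M21 transcripts, and their complete coding transcripts stand at 125 and 240 TPM.

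Among the D cyclins, which pass growth signals to the cell cycle, Ccnd2 had the highest level. Ccnd2 (chr6:127125162-127152193, minus strand) had 903 TPM in replicate 1 and 854 TPM in replicate 2, a mean of 878 ± 35.0 (SD, n = 2), above 99.4% of the 13083 detected protein-coding genes. Ccnd1 (chr7:144929931-144939925, minus strand) had 198 and 226 TPM, a mean of 212 ± 19.9 (SD, n = 2). Ccnd3 (chr17:47505051-47599691, plus strand) had 96.9 and 114 TPM, a mean of 105 ± 11.9 (SD, n = 2). The summed level of the D cyclins was 1198 TPM in replicate 1 and 1194 TPM in replicate 2. Ccnd2 made up 73.4 ± 2.73% of that sum, Ccnd1 17.7 ± 1.71% and Ccnd3 8.81 ± 1.02% (SD, n = 2). The pools thus had nearly the same sum with a different mix, Ccnd2 taking 75.4% of it in replicate 1 and 71.5% in replicate 2.

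Of the kinases that D cyclins activate, Cdk4 was at 1552 TPM in replicate 1 and 1674 TPM in replicate 2, a mean of 1613 ± 86.3 (SD, n = 2). Cdk4 (chr10:127063534-127067920, plus strand) stood above 99.7% of detected protein-coding genes. Its deposited TPM exceeded the upper deposited bound in both libraries, 1527 TPM in replicate 1 and 1655 TPM in replicate 2, as did that of Ccnd2 in replicate 1, where the bound was 902 TPM. Cdk6 (chr5:3341485-3531008, plus strand) had 12.6 and 14.2 TPM, a mean of 13.4 ± 1.10 (SD, n = 2). Cdk4 therefore made up 99.2% of the summed TPM of both kinases, and 96.2% of their summed counts, in which Cdk6 gains from its longer transcripts.

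The 4 inhibitors among the 10 genes were low beside Cdk4, but Cdkn2d, Cdkn1b and Cdkn1a stood above Cdk6. Cdkn1c, a Cip/Kip gene outside the 10 with 668 and 839 TPM, is not in the sums that follow. The level of Cdkn1b (chr6:134920401-134925513, plus strand) was 22.9 TPM in replicate 1 and 22.2 TPM in replicate 2, and that of Cdkn1a (chr17:29090976-29100727, plus strand), a target of p53 and the other Cip/Kip gene here, 18.9 and 18.4 TPM. In the INK4 pair, which bind Cdk4 and Cdk6 directly, Cdkn2d (chr9:21288410-21291407, minus strand) had 48.6 and 56.5 TPM, and Cdkn2c (chr4:109660876-109667189, minus strand) 9.15 and 9.69 TPM. Cdkn2d made up 84.8 ± 0.86% of the INK4 sum, and Cdkn1b 54.7 ± 0.0396% of the Cip/Kip sum (SD, n = 2). The 4 inhibitors together reached 99.5 TPM in replicate 1 and 107 TPM in replicate 2, or 6.36% and 6.32% of the summed kinases. Over complete coding transcripts alone, as defined below, the 4 inhibitors had 98.1 and 106 TPM and the kinases 126 and 135 TPM, so the inhibitors came to 77.9% and 78.3% of the kinases. Rb1 (chr14:73183673-73325822, minus strand), the substrate of the kinases, had 26.4 and 26.7 TPM, a mean of 26.5 ± 0.191 (SD, n = 2), close to the 22.2 TPM of the median detected coding gene. Its complete coding transcript alone had 13.6 and 14.3 TPM, below that median, which is taken over all transcripts of each gene.

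The TPM of a gene is the sum over its annotated transcripts, and for several of the 10 most of that sum lay in short or incomplete models. A transcript is called complete here if it is annotated as protein coding with no tag for a missing start or end of the coding sequence. Of the 66 annotated transcripts, 40 had at least 10 counts in a library, and the transcript with the most TPM was the same in both libraries for all 10 genes. For 7 genes it also held the most counts, and for Ccnd2, Cdk4 and Cdk6 another transcript did.

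The leading Ccnd2 transcript by TPM was Ccnd2-206, a 627-base model with an incomplete coding sequence, which held 44.9% of the gene's TPM in replicate 1 and 45.8% in replicate 2. Ccnd2-201, of 6330 bases and encoding the 289-residue cyclin, held 17.1% and 16.5% of TPM but 70.9% and 69.9% of the counts. A 415-base noncoding model, Ccnd2-207, took another 26.6% and 26.5% of TPM. Complete coding transcripts of Ccnd2 therefore summed to 250 TPM in replicate 1 and 231 TPM in replicate 2, or 27.7% and 27.0% of the gene's TPM, and part of this was Ccnd2-204, whose coding sequence has 156 residues.

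For Cdk4, Cdk4-209, a 468-base model with a retained intron, held 40.7% of TPM in replicate 1 and 40.6% in replicate 2. Counts were spread more evenly: the incomplete Cdk4-205 led with 21.9% and 22.8%, and the complete Cdk4-201, which encodes the 303-residue kinase, held 19.5% and 19.6% of counts and 7.76% and 7.74% of TPM. Cdk4-208, annotated for nonsense-mediated decay, held 20.9% and 20.4% of counts. In Cdk6, the 697-base incomplete Cdk6-203 led by TPM with 36.6% and 41.2%. Cdk6-202, of 11525 bases and encoding 326 residues, held 82.7% and 83.7% of the counts of that gene but 27.4% and 27.0% of its TPM.

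Ccnd1 and Rb1 led with their full coding transcript by both measures, yet with very different shares. Ccnd1-201, encoding 295 residues, held 50.7% of TPM in replicate 1 and 50.5% in replicate 2, and 89.1% and 89.0% of counts. Ccnd1-202, a 470-base model with a retained intron, took 46.1% of TPM in each library. Rb1-201, with 27 exons and 921 residues, held 51.5% and 53.6% of TPM and 92.8% and 93.7% of counts. The 408 bases of the noncoding Rb1-206 lie wholly in exons of another gene, as do 383 of the 411 bases of Rb1-202, and together these models took 42.5% of TPM in replicate 1 and 41.2% in replicate 2.

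**Figure D2:**
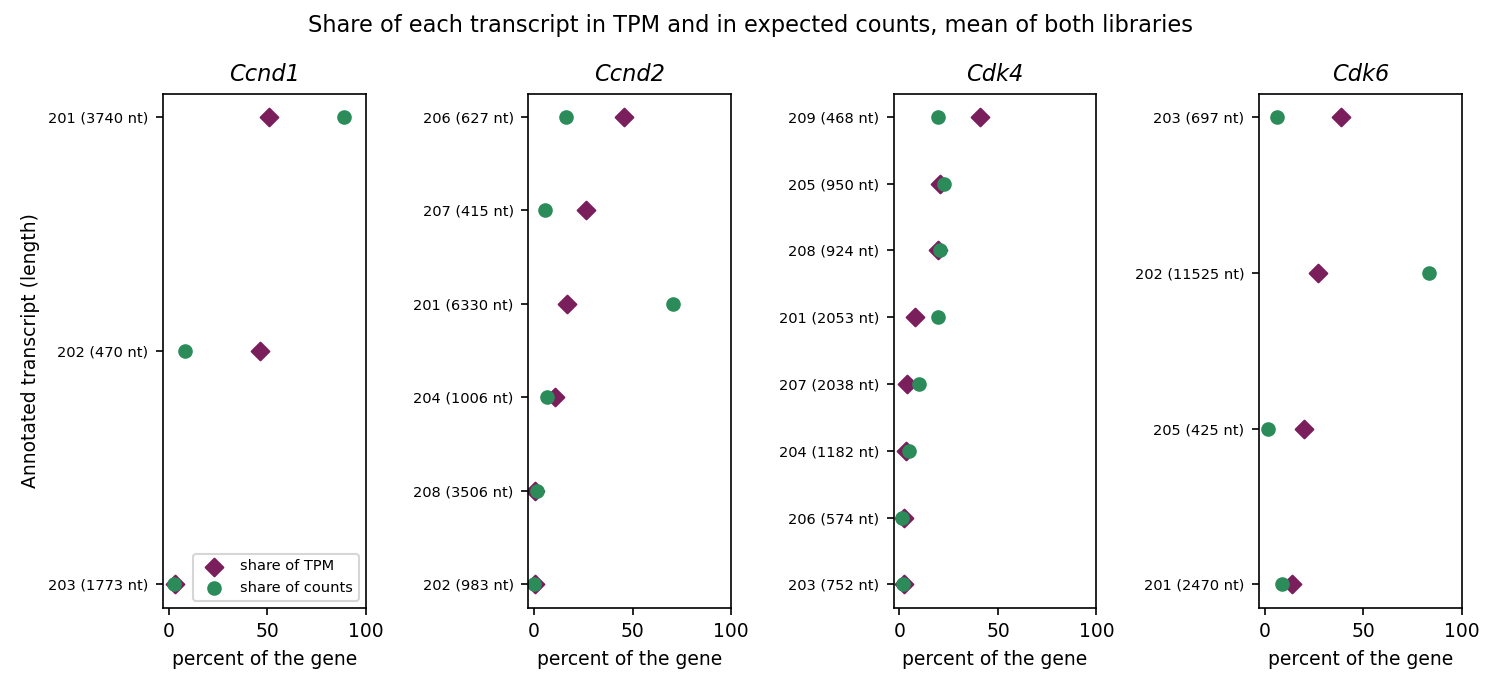
Percent of each gene's TPM (purple diamonds) and expected counts (green circles) held by each annotated transcript with at least 10 counts in a library, as means of both libraries, for Ccnd1, Ccnd2, Cdk4 and Cdk6, with lengths in nucleotides. Short models such as Ccnd2-206 (627 bases) and Cdk4-209 (468 bases) hold more of the TPM than of the counts, and long ones such as Cdk6-202 (11525 bases) the reverse.

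Over complete coding transcripts alone, a measure added after the data had been seen, the order of levels changed and only 3 genes kept their place. Ccnd2 then led with 240 ± 13.7 TPM, followed by Cdk4 with 125 ± 6.44, Ccnd1 with 107 ± 9.84 and Ccnd3 with 102 ± 10.3 TPM (SD, n = 2). Cdk6 stood last with 5.46 ± 0.0778 TPM (SD, n = 2), below Cdkn2c. The inhibitors moved little, since their complete coding transcripts held 97.2% or more of TPM in each library. Cdkn1b-201 and Cdkn1b-202, for instance, both encode its 197 residues and between them held all of its TPM.

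The choice of annotation moved 1 of the 10 genes by more than 1.5-fold in both libraries. Ccnd2 had 903 TPM under M21 and 224 TPM under M4 in replicate 1, and 854 TPM under M21 and 211 TPM under M4 in replicate 2, which is 4.03-fold and 4.05-fold higher under M21. By this rule 4.18% of 14560 genes were higher under M21 and 1.21% lower. M21 annotates 8 transcripts of Ccnd2 and M4 a single one. Cdk6, with 6 transcripts under M21 and 2 under M4, was 1.35-fold and 1.31-fold higher under M21 and stayed below the limit. Under M4, Ccnd2 and Ccnd1 made up almost equal parts of the D cyclins, 39.9 ± 3.45% and 39.9 ± 2.06% (SD, n = 2), and their order differed between the libraries. In counts, Ccnd2 passed no such limit, and none of the 10 did.

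Between the pools, the genes differed by little. A gene was called different when the 95% interval of its count ratio, which covers counting error only, excluded equality. By that rule 1 gene was higher in replicate 1 and 5 were lower, and 4 were not called, while with ERCC spike-in totals as the scale 0 were higher and 10 lower. Among all 19885 genes tested, 15.5% were called higher and 16.7% lower (32.3% in all), and among the 11397 with at least 200 counts in both libraries, as all 10 had, 21.2% and 19.5%. With ERCC totals, 2.14% of all genes tested were called higher and 60.7% lower. The part of all calls that were higher was 48.1% with the TMM scaling used here and 3.40% with ERCC totals. None of the 10 reached a 2-fold difference. A call at 2-fold also needs an interval that excludes equality, and 4.23% of all genes tested had one, 1.78% higher and 2.45% lower. Many of these had few counts, unlike the 10: where either library held 50 counts or more, 208 of 15158 genes were called so. The median log2 ratio of the 10 was -0.09 and that of all genes tested -0.01.

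Ccnd2 was the gene called higher, with 25315 counts in replicate 1 and 29674 in replicate 2, a log2 ratio of 0.13 (95% interval 0.11 to 0.16). With ERCC spike-in totals as the scale, the median gene had a log2 ratio of -0.28 and Ccnd2 one of -0.14, so the direction of Ccnd2 was turned there while it stayed above the median gene. Ccnd1 had 7656 counts in replicate 1 and 11026 in replicate 2, a log2 ratio of -0.16 (-0.21 to -0.12), and Ccnd3 3366 and 4896 counts, a log2 ratio of -0.18 (-0.24 to -0.11). Within the D cyclin family, then, Ccnd2 went one way and its relatives the other under TMM scaling, and all were lower in replicate 1 under ERCC scaling. Cdk4 (log2 ratio -0.07), Cdkn2d (-0.18) and Cdkn2c (-0.23) were also lower in replicate 1. For Cdkn2c the interval was -0.44 to -0.02, and on the log2(TPM + 0.1) scale its difference was -0.08. Rb1, Cdkn1b, Cdkn1a and Cdk6 had log2 ratios of -0.03, 0.09, 0.02 and -0.11. The summed erythroid and mesenchymal markers were lower in replicate 1 as well, while those of neurons were 1923 TPM in replicate 1 and 1816 TPM in replicate 2. The part of cell makeup in these ratios was not tested.

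**Figure D3:**
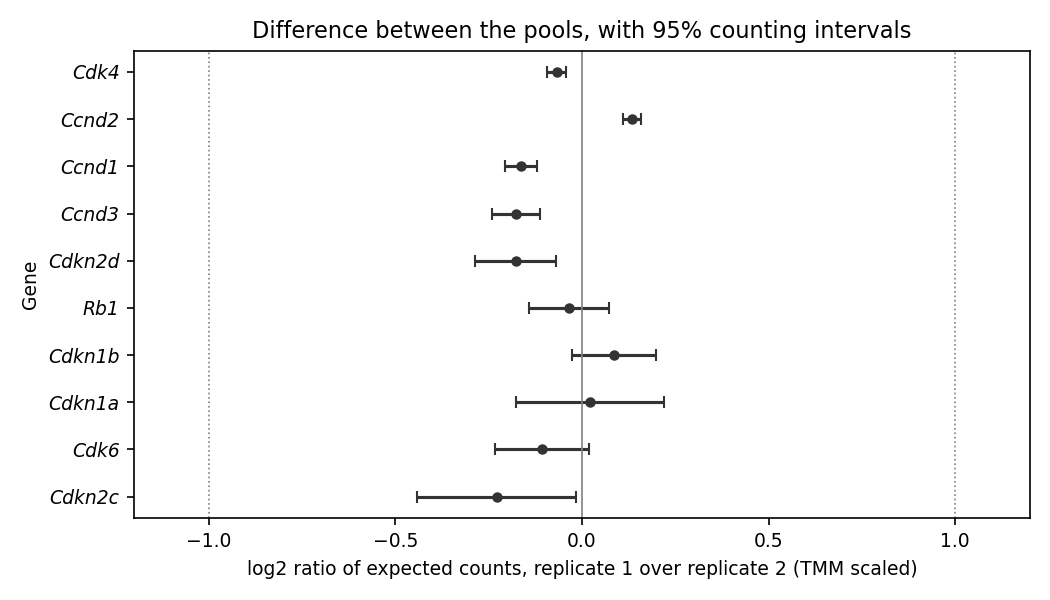
log2 ratio of TMM-scaled expected counts, replicate 1 over replicate 2, for each gene, with bars for the 95% counting interval and dotted lines at a 2-fold difference. Ccnd2 lies above 0 at 0.13 (-0.14 with ERCC totals) and 5 genes lie wholly below 0, the lowest being Cdkn2c at -0.23.

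The annotated starts divided the counts of Ccnd3, Cdkn1a and Cdkn2c unequally. Transcripts beginning within 500 bases of each RefSeq start were summed. For Ccnd3, whose starts lie 88416 bases apart, the downstream start held 97.2% of all Ccnd3 counts in replicate 1 and 95.9% in replicate 2. The upstream start took 1.19% (95% Clopper-Pearson interval 0.85 to 1.61%) in replicate 1 and 2.12% (1.74 to 2.57%) in replicate 2, so its share was small in both and lower in replicate 1 beyond counting error. Ccnd3-205 from the downstream start and Ccnd3-215 from the upstream start are both annotated with a 292-residue protein.

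For Cdkn1a, whose starts lie 2790 bases apart, the upstream start with the p53 motifs shown above took 54.3% of counts (49.2 to 59.5%) in replicate 1 and 48.4% (43.8 to 53.02%) in replicate 2. The downstream start took 37.8% (32.9 to 43.0%) and 41.0% (36.6 to 45.6%). Both starts thus held a large part of the counts in each pool, and under M21 the intervals of the pools overlapped. In TPM, which is divided by length, the split was less even. The upstream start held 70.05% and 64.4% of the gene's TPM under M21, and the downstream start 22.1% and 24.7%. Under M4 those of the upstream start did not: Cdkn1a-202 held 51.6% (46.4 to 56.9%) in replicate 1 and 40.1% (35.6 to 44.7%) in replicate 2. Cdkn1a-201 from the downstream start held 41.8% (36.7 to 47.0%) and 42.1% (37.5 to 46.7%) there, nearly the same in both. Cdkn1a-203, which under M21 begins near neither start, held 6.55% (4.25 to 9.60%) and 17.8% (14.4 to 21.6%). Cdkn1a-202, Cdkn1a-201 and Cdkn1a-203, which begin at different places, are all annotated with the same length of 159 residues. They also end at different places, so their shares are those of whole transcript models and not of the starts alone.

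For Cdkn2c, whose starts lie 1384 bases apart, the upstream start took 75.5% of counts (70.1 to 80.1%) in replicate 1 and 86.5% (83.0 to 89.5%) in replicate 2. These are the counts of Cdkn2c-202, whose annotated first base, 109667189, lies upstream of the window shown, which ends at 109667006. That window therefore does not hold the annotated start of Cdkn2c-202. The downstream start, whose window holds the E2F core, took 24.5% (19.9 to 29.9%) and 13.5% (10.5 to 17.0%). The intervals did not overlap, so the pools divided the gene between its starts differently beyond counting error, on 304 counts in replicate 1 and 458 in replicate 2. Both transcripts, Cdkn2c-202 and Cdkn2c-201, have a coding sequence of 168 residues. Cdkn2c-202 has 2471 bases and Cdkn2c-201 1106, so their shares of TPM differ from those of counts. In TPM the upstream start held 56.6% in replicate 1 and 73.2% in replicate 2, and the downstream start 43.4% and 26.8%.

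**Figure D4:**
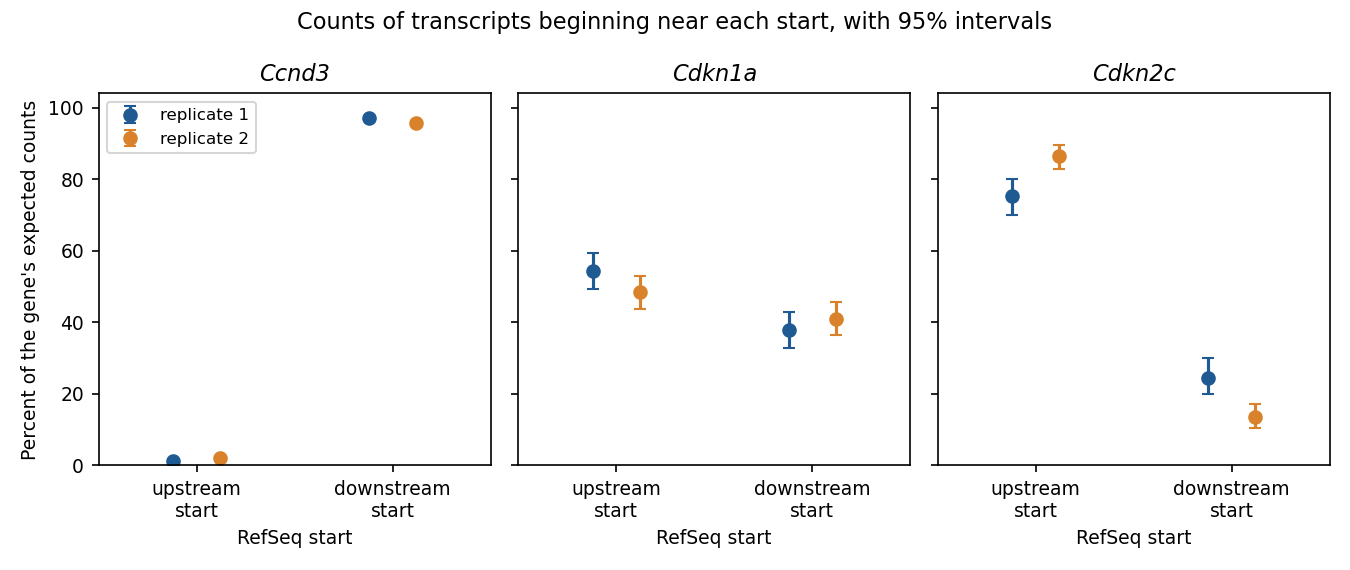
Percent of each gene's expected counts in transcripts beginning within 500 bases of the upstream and the downstream RefSeq start, in replicate 1 and replicate 2, with 95% Clopper-Pearson intervals. The downstream start holds nearly all counts of Ccnd3, the upstream start most of those of Cdkn2c (75.5% and 86.5%), and Cdkn1a is divided between both.

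Of the 40 transcripts with at least 10 counts, 10 had a share of their gene's counts that differed between pools beyond counting error, against 28.5% of 54182 transcripts of all genes. The largest shifts, of similar size, were in Cdkn2d and Cdkn2c. Cdkn2d-203, which encodes the 166-residue inhibitor, held 96.5% of counts (95.2 to 97.4%) in replicate 1 and 85.4% (83.7 to 87.0%) in replicate 2. Cdkn2d-201, annotated with a coding sequence of 50 residues, held 2.26% (1.52 to 3.32%) and 13.8% (12.2 to 15.5%). In TPM, Cdkn2d-203 stood at 46.0 in replicate 1 and 46.9 in replicate 2, and Cdkn2d-201 at 1.22 and 8.60. The lower Cdkn2d level in replicate 1 thus lay mostly in Cdkn2d-201. M4 annotates a single Cdkn2d transcript, so no such shift can be seen there. The other 6 belonged to Ccnd2, Ccnd3 and Cdk4, and each held under 2% of its gene's counts except Cdk4-207, with 10.6% in replicate 1 and 9.74% in replicate 2. Counts are divided between overlapping transcripts by a model, and that error is not in the intervals.

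Several of the genes share exon bases with a gene on the opposite strand, and since the strand setting of the counting is not given in the sources used here, their reads there cannot be told apart. Ccnd1 shares 1100 exon bases with LTO1 (25.7 and 28.6 TPM), and Cdk4 641 with Tspan31 (128 and 129 TPM), all 641 of them also in the complete transcript Cdk4-201. Rb1 shares 488 with Rcbtb2 and 408 with Lpar6, and Ccnd3 361 with Bysl. The partners of Ccnd2, Cdk6 and Cdkn1a are not annotated as protein coding, and the highest of them, Gm43126 beside Ccnd2, had 7.68 and 14.5 TPM. Cdkn1b, Cdkn2c and Cdkn2d share none.

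Of 30 other genes of G1 and S phase entry, 28 were detected. In the 29 that could be tested between pools, 4 were higher in replicate 1, 6 lower and 19 not called. Of all genes tested, 15.5% were called higher and 16.7% lower. With ERCC totals 0 of these pathway genes were higher and 25 lower, against 2.14% and 60.7% of all genes tested. None of the 29 was called at 2-fold or more with TMM scaling. Among the inhibitors outside the 10, Cdkn1c, an imprinted Cip/Kip gene that promotes cell cycle exit, was far the highest with 668 TPM in replicate 1 and 839 TPM in replicate 2, a mean of 754 ± 120 (SD, n = 2) and a log2 ratio of -0.30 (-0.32 to -0.27). It thus exceeded the 4 inhibitors described above together in each library. The mesenchymal markers named above also had the lower sum in replicate 1, and their part in the level of Cdkn1c was not tested. Cdkn2a had 0 counts in both libraries, which does not show that its RNA was absent. Cdkn2b had 6 counts in replicate 1 and 19 in replicate 2, under 1 TPM in both. The log2 ratio of Cdkn2b was -1.30, but its interval, -2.91 to 0.08, included equality.

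The E and A cyclins with their kinase Cdk2 were all detected (5 of 5), from Ccna1 at 1.76 ± 0.12 TPM, a cyclin known from the germline, to Ccna2, the S phase cyclin, at 158 ± 4.99 TPM (SD, n = 2). The 3 subunits of the CDK-activating kinase, which phosphorylates the cyclin-bound kinases, ran from Mnat1 at 21.7 to Ccnh at 81.8 TPM. The other pocket proteins Rbl1 and Rbl2 stood at 23.8 ± 0.226 and 13.8 ± 1.14 TPM (SD, n = 2), near and below the level of Rb1 over all its transcripts. All 10 E2F and DP factors were detected, from E2f2 at 7.99 TPM to Tfdp1, the dimer partner of E2F proteins, at 136 TPM. Among 7 genes of turnover and upstream control, Fbxw7, which targets cyclin E for destruction, was lowest at 13.5 TPM and Cks1b, a partner of cyclin-dependent kinases, highest at 231 TPM.

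**Figure D5:**
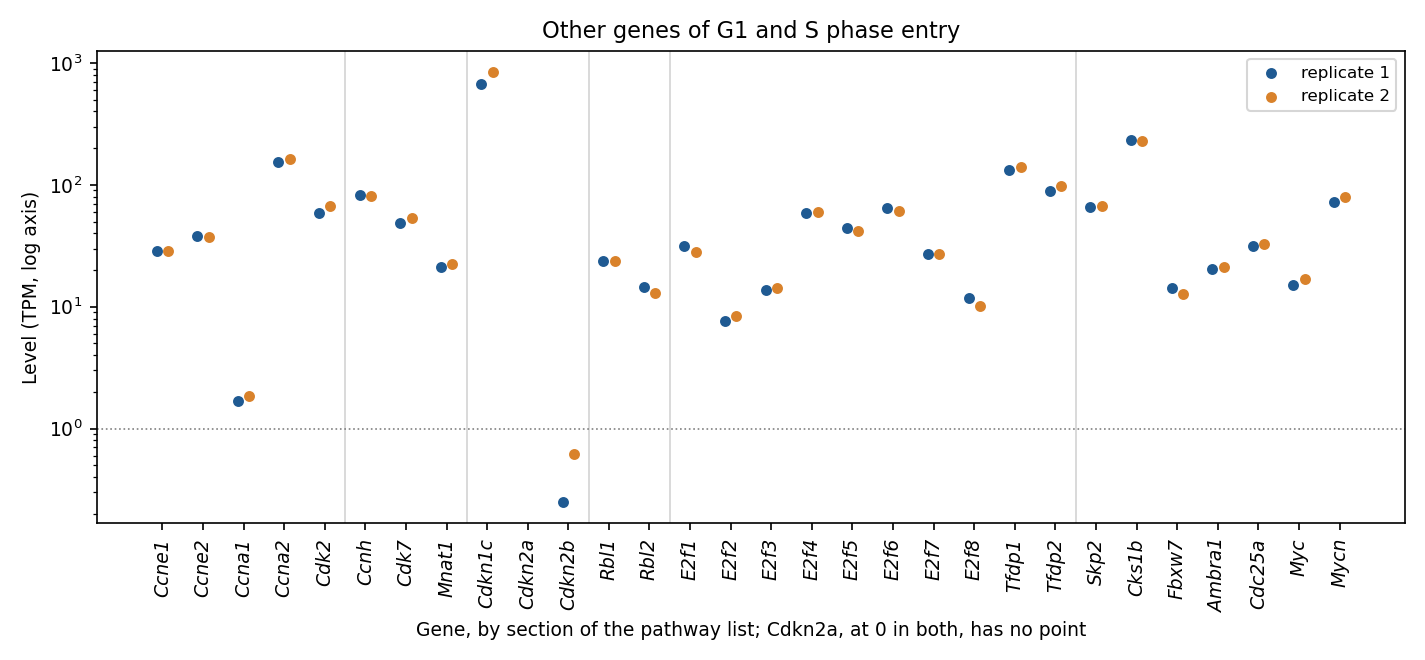
TPM (log axis) of the 30 other pathway genes in replicate 1 and replicate 2, grouped by section of the list, with a dotted line at the detection limit of 1 TPM. Cdkn1c stands at 668 and 839 TPM, Cdkn2b below the limit in both libraries, and Cdkn2a, with 0 counts, has no point.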

How the data were processed

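Per the labels' protocols, the RNA was primed with oligo-dT from 10 ng, ERCC control RNAs were added, and fragments were made by tagmentation. Per the file headers, each of the 4 deposited tables per library holds an expected count, unscaled, and TPM and FPKM, both scaled by the authors for length and depth. The deposited tables also hold bounds of the TPM, a signal on the same scale whose interval level the headers do not state. In the transcript tables the authors give each transcript's percent of its gene's TPM. The assembly was mm10, per the labels. The column names are those RSEM uses, but the aligner, the counting tool and its strand setting are not given in the sources used here. Near-identical copies can share reads that such a model divides.

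The 10 genes, the pathway and marker lists, the limits and the rule for naming genes (all 10, the highest and lowest gene of each of the 6 sections of the pathway list and any at 2-fold, and the highest marker) were chosen with earlier results of these data known. Coordinates, transcript types and coding lengths came from GENCODE M21, and promoter windows from RefSeq, which had 10 windows for 7 of the genes. Rows that name no gene took 4.02% of counts in replicate 1 and 3.38% in replicate 2, and were left out of ratios. Nearly all of these counts, though not of these rows, were ERCC. The rows stayed in the total to which TPM is set, of which annotated genes held 903415 TPM in replicate 1 and 919072 TPM in replicate 2. With TPM set over annotated genes only, 8 of the 10 levels moved by 1 SD or more and 2 did not, and all 10 kept their rank. Expected counts were rounded and scaled by TMM (edgeR 4.0.16). Ratios and shares carry 95% Clopper-Pearson intervals (scipy 1.17.1), a gene or transcript needing at least 10 counts in a library. They cover counting error only, since reads without molecular identifiers are not independent molecules. With 1 library per pool there is no test and no p-value; the labels call the pools biological replicates. Tested on simulated Poisson counts, the ratio rule called 4.59% of 19582 unchanged genes and 100% of 50 genes changed 2-fold. The changed genes were drawn from those expected at 50 or more counts. The simulation holds no spread between pools and no error of dividing reads between transcripts, so it checks only the arithmetic of the rule. Alternatives covered scaling (DESeq2 1.42.0 size factors, totals, ERCC), filters, pseudocounts of 0.1 and 1, annotation and leaving out each library.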

Additional observations from a re-analysis of the deposited data

How the results depend on the processing

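Leaving out single libraries aside, 62 alternative values of the summary results stayed within 1.5 times a count or within 1 SD of a level, and 23 did not. For single genes and transcripts the numbers were 105 and 44, and 1 reversed, Ccnd2 under ERCC scaling, at a log2 ratio of -0.14. Log2 ratios were judged instead by whether they stayed inside the main counting interval. Part of the values that stayed could not move. Dropping or raising the filter on counts, or a 1.5-fold limit, leaves the counts and scale of the 10 genes as they were. Their log2 ratios and their calls beyond counting error are then the same by construction and test nothing. ERCC totals put the median gene at -0.28 and the share of calls that were higher in replicate 1 at 3.40%, against 48.1% with TMM. Under them 0 of the 10 genes were higher and 10 lower, and of the pathway genes 0 were higher, 25 lower and 1 called at 2-fold. Of all 19885 genes tested, 2.14% were higher, 60.7% lower and 1090 called at 2-fold under ERCC totals. Complete coding transcripts, an alternative chosen after seeing the data, left 3 genes at their rank. They put the D cyclins at 450 TPM with 53.5% from Ccnd2, and the kinases at 131 TPM with 95.8% from Cdk4. The M4 tables put the D cyclins at 547 TPM with 39.9% from Ccnd2, the Cip/Kip pair at 46.5 TPM with 51.1% from Cdkn1b, the INK4 pair at 70.5 TPM with 85.9% from Cdkn2d, and gave Cdk4 99.4% of the kinases. In expected counts, Ccnd2 held 67.4%, Cdk4 96.2%, Cdkn1b 75.2% and Cdkn2d 79.2% of their families. Between annotations, 2 genes, Ccnd2 and Cdk6, differed at a limit lower than 1.5-fold, and 0 in expected counts. The cause of these moves was not tested. With 2 libraries, leaving out either one moves a mean by less than 1 SD by construction, so it tests nothing for levels and shares; counts of genes did not change. Under M4 the Cdkn1a-202 share differed between pools (51.6% and 40.1%), as it did not under M21. Ratios between the pools have no value with a library left out. No paired analysis was possible because the study has 1 group. Depth limits Cdkn2c most, which had the fewest counts of the 10 genes.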
